A study of Mus musculus with 4 samples.

Results

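Heterotrimeric G proteins and the RGS proteins that switch them off were examined in clonal lines of c17.2 cells, which are neural stem cells from neonatal mouse cerebellum that were made immortal with an oncogene. The set held 9 genes: the inhibitory alpha subunits Gnai1, Gnai2 and Gnai3, the stimulatory alpha subunit Gnas, the Gq alpha subunit Gnaq, the beta subunit Gnb1, and the regulators Rgs2, Rgs14 and Rgs16. They were taken by symbol from 8236 genes with a probe set of their own on the array, and were represented by 17 of 12403 gene probe sets. Genes of this family were chosen by their signals in these same arrays, in which differences of Gnai1 and Rgs14 between the matched clones were already known. The differences of the members between matched clones are therefore a description. The table-wide test gives counts of them only beside the share of all probe sets, and supports nothing about them.

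Of the 4 lines, clone 42 and clone 48 are labelled as stable transfectants of Nurr1, an orphan nuclear receptor whose gene is Nr4a2. The control lines puroB and puroD are puromycin-resistant transfectants that carry only the vector. All were grown under proliferating conditions, and the labels match clone 42 with puroB and clone 48 with puroD for similar proliferation rates. Each line is 1 clone measured on 1 array, so that a group of 2 clones also carries whatever else differs between single clones. Values are MAS5 signals, 1 intensity per probe set and array, and signals of different probe sets are not set against each other. Because each array measured RNA from a whole culture, fewer cells with a transcript and less transcript per cell cannot be told apart.

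In a receptor-coupled G protein, the alpha subunit binds GTP when a receptor is activated and separates from the beta and gamma subunits, and both parts then act on effectors. Inhibitory alpha subunits lower cAMP by restraining adenylyl cyclases, the Gnas product raises it, and the Gnaq product activates phospholipase C. RGS proteins speed up GTP hydrolysis on alpha subunits and so end the signal. In neural progenitors inhibitory alpha subunits also take part in orienting the mitotic spindle, and RGS14 binds inactive inhibitory alpha subunits through a separate GoLoco motif.

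Nr4a2 itself did not check the labels. Its probe set 92248_at read 320 for clone 42 and 206 for clone 48, with puroB at 485 and puroD at 254, and 92249_g_at was also lower in both transfected clones. The lines are therefore called Nurr1-labelled, and each direction is that of the labels. Array medians lay between 125.6 and 160.1. The ratio of 3' to 5' actin signals reports on RNA integrity. It was 1.68 for clone 42 and 2.41 for clone 48, with puroB at 1.51 and puroD at 2.003. The Gapdh ratio was 0.94 for clone 42 and 1.24 for clone 48, with puroB at 0.86 and puroD at 0.97. Both ratios were higher in the Nurr1-labelled clone of each pair. Clone 48 and puroD also each exceeded both arrays of the other pair. Of 8 measured neural stem markers, 5 exceeded the overall median of 145 on every array. Among these Nes (nestin) differed by -0.07 and 0.30 on the log2 scale in the pairs, while Fabp7 (-1.20 and -3.29), Hes1 (-0.35 and -0.59), Id2 (-0.67 and -0.47) and Notch1 (-0.44 and -0.33) were lower in both. The dimmer markers of the list did not share this direction. Msi1 (0.36 and -1.18) and Cd24a (0.71 and -0.72) were mixed, and Vim, below 145 on every array, was higher in both (1.07 and 0.09). Summed signals of the list were 5206 to 5353 in the Nurr1-labelled clones and 6402 to 6675 in the control clones. A sum mostly reflects its brightest probe sets. That of 8 neuronal markers, 5488 to 6913 in the Nurr1-labelled clones and 3361 to 3391 in the control clones, was mostly Tubb3. Nefl and Nefm were also higher in both pairs, Map2 (-2.11 and -1.58) and Dcx (-0.22 and -0.52) were lower, Stmn2 was mixed (0.25 and -0.59), and Syp and Snap25 stayed at or below 21.3. That of 5 fibroblast markers, 5303 to 8249 in the Nurr1-labelled clones and 2132 to 3407 in the control clones, was mostly Col3a1 (1.96 and 1.20). In the pair of clone 48, Col1a1 was lower (-1.43) and Col1a2 differed by -0.07. Oligodendrocyte markers summed to 5335 to 7919 in the Nurr1-labelled clones and 3712 to 5083 in the control clones. That sum was mostly Sox10 (0.11 and 1.16), while Mbp was lower in both pairs (-1.22 and -0.63). Astrocyte markers summed to 1734 for clone 42 and 713 for clone 48, with puroB at 1060 and puroD at 744. Most of that was S100b (1.12 and -0.30). Microglial and endothelial sums were at most 549. The part of RNA integrity or of cell composition in the member differences was not tested.

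Signals below 40.3, the 30th percentile of all values, were raised to that floor before log2 was taken, since ratios of MAS5 signals close to background are unstable. Probe sets above 145, the overall median, on 2 or more arrays were tested. Of the 17 member probe sets, 12 met this, for 7 of the 9 genes, and 5 did not. Control probe sets for bacterial transcripts at background reached at most 62.7 for clone 42 and 39.1 for clone 48, with puroB at 49.8 and puroD at 59.1. These highest values serve as the background level of each array.

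**Figure D1:**
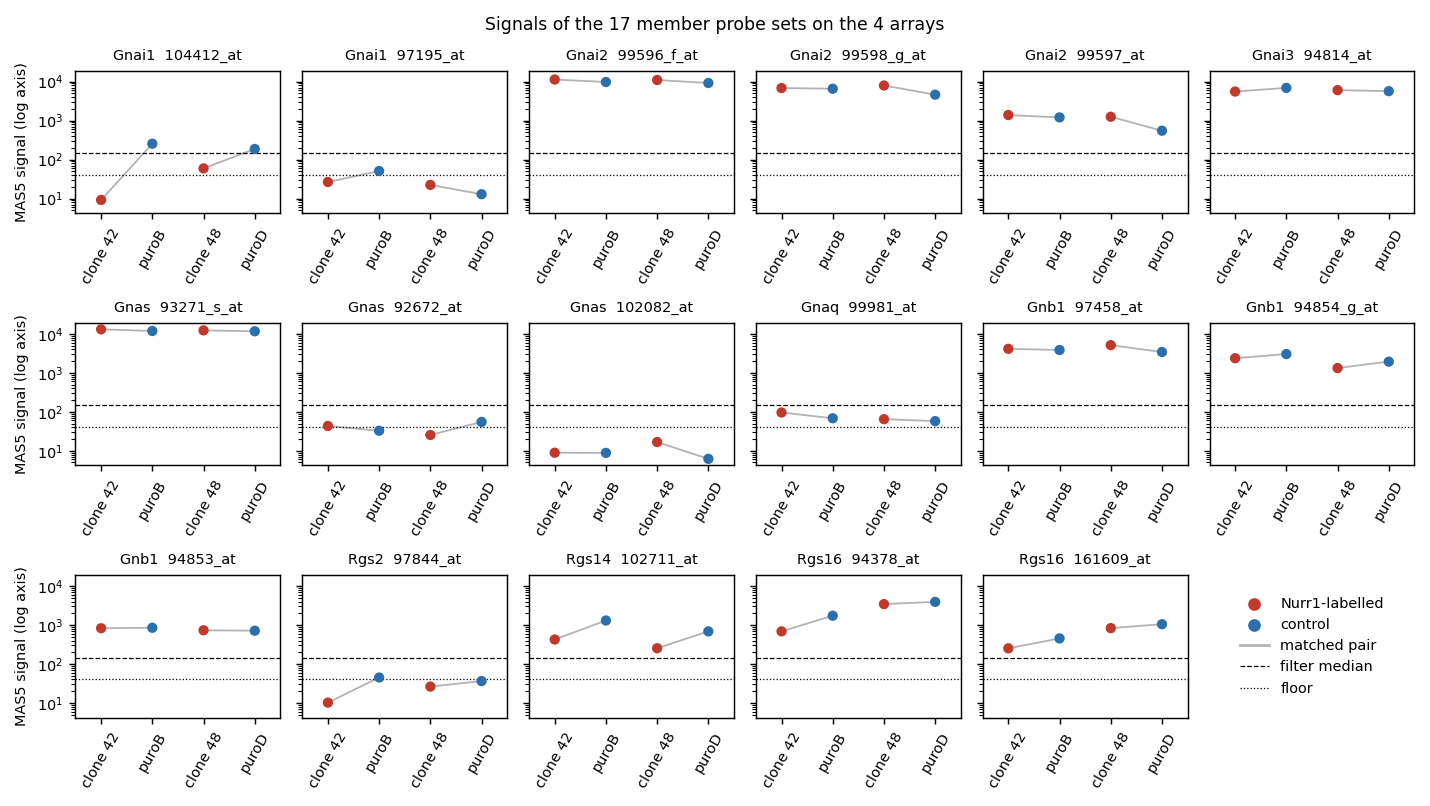
MAS5 signal on a log axis for each of the 17 member probe sets on the 4 arrays, with Nurr1-labelled clones in red, control clones in blue, and lines joining matched pairs. The dotted line is the floor of 40.3 and the dashed line the median of 145. Gnai1 (104412_at) and Rgs14 are lower in both Nurr1-labelled clones, and Rgs16 is higher in the pair of clone 48 and puroD at both of its probe sets.

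Gnai1, an inhibitory alpha subunit that restrains adenylyl cyclase, had the largest difference of the members. Its probe set 104412_at read 9.2 for clone 42 and 59.4 for clone 48, with puroB at 255.4 and puroD at 187.3. Both control arrays were above 145, and both Nurr1-labelled arrays were below it. Clone 42 lay below the floor and below the background level of its array, 62.7, and against that level its signal was at least 4.07-fold lower than that of puroB. In the other pair, where clone 48 read above its own background level of 39.1, the signal was 3.15-fold lower in clone 48.

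On floored log2 signals the Gnai1 differences were -2.66 (clone 42 minus puroB) and -1.66 (clone 48 minus puroD), and they averaged -2.16 ± 0.50 (SE, n = 2 pairs). Here and below, an SE from 2 pairs rests only on how far the pairs lie apart, so a small one does not show precision. The Gnai1 mean rests on the floor in clone 42 and is not a bound. Among 6419 tested probe sets, 5 had a lower mean difference. The probe set was tested only through the control clones, so a difference was built into its passing the filter. The gap between the control clones was 0.45 in puroB over puroD, smaller than either pair difference. A further Gnai1 probe set, 97195_at, read 26.6 for clone 42 and 22.4 for clone 48, with puroB at 50.9 and puroD at 12.9. It exceeded the background level only in puroB, by 50.9 to 49.8, and gives no size for a difference.

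Gnai2, the inhibitory alpha subunit found in most tissues, was read by 3 probe sets, and at each of them both Nurr1-labelled clones lay above both control clones. Probe set 99596_f_at gave 11347 for clone 42 and 11039 for clone 48, with puroB at 9818 and puroD at 9258. Probe set 99598_g_at gave 6872 for clone 42 and 7988 for clone 48, with puroB at 6586 and puroD at 4633. Probe set 99597_at gave 1391 for clone 42 and 1258 for clone 48, with puroB at 1210 and puroD at 551. The low puroD signal at the last 2 of these probe sets sets most of the spread.

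The mean log2 differences of Gnai2 were 0.23 ± 0.02, 0.42 ± 0.36 and 0.70 ± 0.50 (SE, n = 2 pairs) in the order given. The pair of clone 42 gave 0.21, 0.06 and 0.20, and the pair of clone 48 gave 0.25, 0.79 and 1.19. Between the control clones puroB exceeded puroD by 0.08, 0.51 and 1.14, close to the difference of clone 48 from puroD at 99597_at. Without puroD the mean at 99597_at was 0.13. Probe sets ending in _f or _s can hold probes shared with similar transcripts, so the level at 99596_f_at may not be that of Gnai2 alone.

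Gnai3, the remaining inhibitory alpha subunit, gave 5584 for clone 42 and 6067 for clone 48, with puroB at 6927 and puroD at 5712, at 94814_at. The groups overlapped, with puroB the highest array. Its log2 differences were -0.31 and 0.09 in the pairs, with a mean of -0.11 ± 0.20 (SE, n = 2 pairs). Its sign turned to 0.06 when arrays were scaled to a common median and to 0.03 without puroB. Of the 3 genes that encode inhibitory alpha subunits, Gnai1 was thus the one below and Gnai2 the one above the control clones in both matched pairs, whereas Gnai3 differed in opposite directions.

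Upstream sequences of Gnai1 and Gnai3 are shown because these paralogues encode like subunits and read differently here, together with that of Rgs16, whose signal followed the matched pair. They are the 250 bases before the annotated start, from RefSeq on build GRCm38.p6, written in the direction of the gene with every GC box (GGGCGG on either strand, overlaps counted) in capitals. Gnai1 lies at chr5:18360414-18360663 on the minus strand, Gnai3 at chr3:108146153-108146402 on the minus strand, and Rgs16 at chr1:153740103-153740352 on the plus strand.
Gnai1: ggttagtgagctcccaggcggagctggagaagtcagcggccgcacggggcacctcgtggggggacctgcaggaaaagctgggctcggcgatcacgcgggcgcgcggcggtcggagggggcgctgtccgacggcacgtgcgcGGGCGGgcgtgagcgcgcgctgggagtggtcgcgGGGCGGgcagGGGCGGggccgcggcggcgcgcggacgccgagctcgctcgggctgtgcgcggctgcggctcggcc
Gnai3: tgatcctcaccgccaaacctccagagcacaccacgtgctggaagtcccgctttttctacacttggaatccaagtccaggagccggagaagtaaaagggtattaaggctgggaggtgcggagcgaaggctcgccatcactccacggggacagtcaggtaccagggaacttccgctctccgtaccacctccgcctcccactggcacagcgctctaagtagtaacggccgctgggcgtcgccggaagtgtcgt
Rgs16: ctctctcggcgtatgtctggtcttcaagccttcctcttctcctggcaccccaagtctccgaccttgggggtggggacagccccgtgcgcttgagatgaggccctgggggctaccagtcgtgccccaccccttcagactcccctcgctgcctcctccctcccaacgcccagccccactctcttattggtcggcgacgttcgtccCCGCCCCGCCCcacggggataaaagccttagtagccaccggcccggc

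The Gnai1 window held 3 GC boxes, with first bases 109, 75 and 65 bases before the start, and 79.2% of its bases were G or C. The Gnai3 window held 0 GC boxes at 59.6% G or C, and the Rgs16 window held 2, which share 1 base. A GC box stood in 32.7% of all 32851 windows of this length. Windows were at hand for 7 of the 9 members, 10 in all, 4 of them for Gnas, some of which overlap. Gnai2 and Rgs14 had no window, so the counts do not cover them. None of the 10 held the NBRE, AAAGGTCA, the octamer that Nurr1 binds as a monomer, on either strand, and it stood in 1.34% of all windows. The cAMP response element TGACGTCA was in 0 of the 10 and in 1.55% of all windows. These counts describe only the letters in the windows.

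Gnas encodes the stimulatory alpha subunit, which activates adenylyl cyclases, and its locus makes several imprinted transcripts. Probe set 93271_s_at read 13100 for clone 42 and 12300 for clone 48, with puroB at 11866 and puroD at 11657. Both Nurr1-labelled clones were higher, by small ratios of 1.10 and 1.06 in the pairs, or a mean log2 difference of 0.11 ± 0.03 (SE, n = 2 pairs). Probe sets 92672_at (25.4 to 43.3 in the Nurr1-labelled clones and 32.6 to 55.0 in the control clones) and 102082_at (8.9 to 16.7 in the Nurr1-labelled clones and 6.2 to 8.8 in the control clones) were not above the background level on any array. Which of the Gnas transcripts each probe set reads was not resolved here.

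Gnaq, whose product links receptors to phospholipase C, was dim. Its signals were 95.9 for clone 42 and 64.7 for clone 48, with puroB at 68.2 and puroD at 57.5, at 99981_at. Clone 42 was the highest array and puroD, which did not exceed its background level, the lowest. No array reached 145, so Gnaq was not tested; its log2 differences were 0.49 and 0.17 in the pairs.

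Gnb1 encodes a beta subunit that is shared by G proteins of all classes, and its 3 probe sets disagreed. Probe set 97458_at read 4135 for clone 42 and 5137 for clone 48, with puroB at 3859 and puroD at 3420, with both Nurr1-labelled clones higher. Probe set 94854_g_at read 2373 for clone 42 and 1326 for clone 48, with puroB at 3036 and puroD at 1940, lower in both pairs although the groups overlapped. Probe set 94853_at read 828 for clone 42 and 734 for clone 48, with puroB at 851 and puroD at 716. The mean log2 differences were 0.34 ± 0.24, -0.45 ± 0.10 and -0.001 ± 0.04 (SE, n = 2 pairs), so no direction can be given for the gene. The value of 94854_g_at was -0.03 without clone 48 and -0.87 without clone 42, and that of 94853_at turned to 0.17 with arrays scaled to a common median.

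Rgs14, a GTPase-activating protein for inhibitory alpha subunits that also binds their inactive form, read 425.5 for clone 42 and 253.5 for clone 48, with puroB at 1307 and puroD at 687.5, at 102711_at. All 4 signals were well above the background level, and the groups did not overlap. The signal was 3.07-fold lower in clone 42 than in puroB and 2.71-fold lower in clone 48 than in puroD. The log2 differences were -1.62 and -1.44, with a mean of -1.53 ± 0.09 (SE, n = 2 pairs), and 27 of 6419 tested probe sets had a lower mean. The control clones were 0.93 apart on this scale, in puroB over puroD, and the Nurr1-labelled clones 0.75, in clone 42 over clone 48. Without the pair in the comparison, leaving out 1 clone moved the Rgs14 difference to between -1.99, without puroD, and -1.07, without puroB.

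Rgs16, which acts on inhibitory and Gq alpha subunits, separated the matched pairs more than the groups. Probe set 94378_at read 686.6 for clone 42 and 3450 for clone 48, with puroB at 1736 and puroD at 3930. Probe set 161609_at read 252.5 for clone 42 and 833 for clone 48, with puroB at 453 and puroD at 1050. At both, clone 42 was the lowest array and puroD the highest, each clone 48 and puroD signal exceeded each clone 42 and puroB signal, and the Nurr1-labelled clone was the lower of its pair.

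For Rgs16 the pair of clone 48 and puroD exceeded the pair of clone 42 and puroB by 1.75 and 1.47 on the log2 scale at these probe sets, with 1 array per clone. That pair also had the higher 3' to 5' ratios of actin and Gapdh, whose part was not tested. The differences within pairs were -1.34 and -0.19 at 94378_at and -0.84 and -0.33 at 161609_at. Their means were -0.76 ± 0.57 and -0.59 ± 0.25 (SE, n = 2 pairs), and the control clones differed by -1.18 and -1.21 in puroB over puroD. The Nurr1-labelled clones differed by -2.33 and -1.72 in clone 42 over clone 48. Without clone 42 the means turned to 0.40 and 0.27, and without puroD they were -0.17 and 0.02.

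Rgs2, a regulator that acts mainly on Gq alpha subunits, read 10.2 for clone 42 and 26.3 for clone 48, with puroB at 45.0 and puroD at 36.4, at 97844_at. None of these exceeded the background level of its array, and no fold is given.

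**Figure D2:**
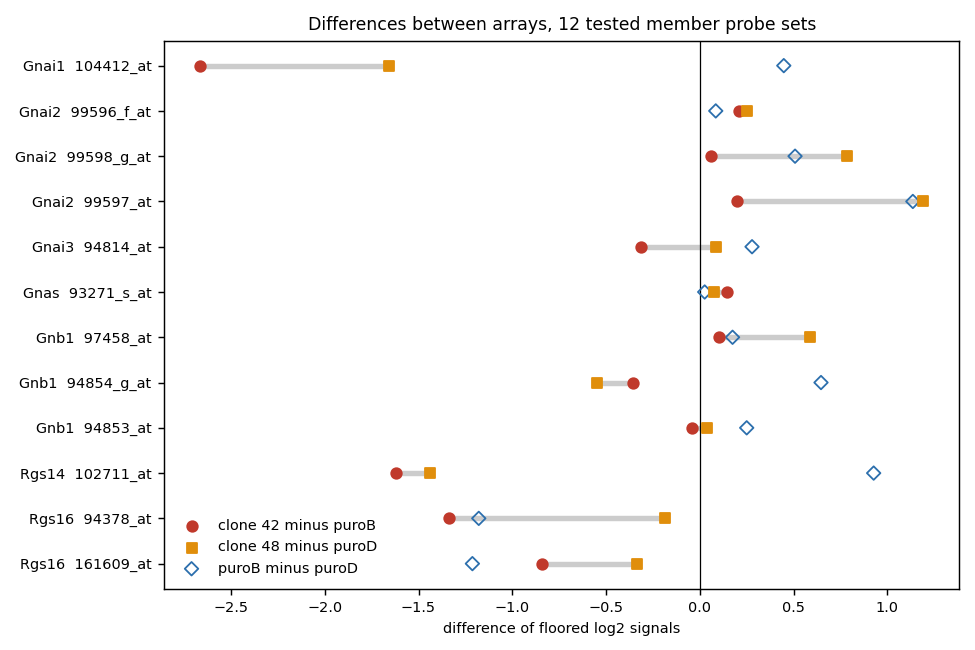
Difference of floored log2 signals for the 12 tested member probe sets: clone 42 minus puroB (circles), clone 48 minus puroD (squares), joined by a bar, and puroB minus puroD (open diamonds). Gnai1 and Rgs14 lie below -1 in both pairs, whereas for Rgs16 the control clones differ by -1.18 and -1.21, beyond the clone 48 pair at both probe sets.

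Over the 12 tested member probe sets, 2 were lower by 2-fold or more in both pairs (Gnai1 and Rgs14), as were 0.763% of the 6419 tested probe sets. The groups did not overlap for 2 member probe sets that were lower in the Nurr1-labelled clones (17.9% of all tested) and for 5 that were higher (12.8%). The higher ones were the 3 of Gnai2, that of Gnas and 1 of Gnb1. Lower in both pairs were 5 of 12 (29.7% of all tested) and higher in both pairs 5 of 12 (21.7%). Both differences stayed within 2-fold for 8 of the 12, and the median of their mean differences was -0.06, against -0.04 over all tested probe sets. In limma with the matched pair as a block, 0 of 12 passed at a Benjamini-Hochberg adjusted p of 0.05, where 0.109% of all tested did, and 3 had an unadjusted p under 0.05, where 7.38% of all did. Because the members were chosen with this contrast known, nothing is read from these counts.

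The other genes of the pathway were counted from 8 lists, by role. Of 109 listed genes on the array 49 were tested, each by its brightest tested probe set. In limma with Benjamini-Hochberg adjustment over all probe sets, 0 of the 49 passed in either direction, against 0.109% of all tested probe sets. An unadjusted limma p under 0.05 was found for 6 of the 49, against 7.38% of all tested probe sets. The median mean log2 difference of the 49 was -0.16, against -0.04 over all tested probe sets. Lower in both pairs were 25 of 49 genes (51%, against 29.7% of all tested probe sets). Higher in both pairs were 4 of 49 (8.16%, against 21.7% of all tested probe sets). Gng2 and Npy2r, both lower, and Crem, higher, were tested only through the group where they were brighter. Their direction was built into passing the filter. These counts also depend on the scaling. With arrays scaled to a common median, the median of all tested probe sets was 0.13 instead of -0.04. Small negative differences can then turn positive, and the lists were not counted again under that scaling. The lists were chosen with earlier results of these arrays known, and these shares are a description.

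Among other alpha subunits, 3 of 4 tested were lower in both pairs. Gna11, a relative of Gnaq, had -0.94 and -0.30 in the pairs (mean -0.62, limma adjusted p = 0.711), but 0.02 at another probe set. Gna12 had a mean of -0.26, and Gnao1, the abundant alpha subunit of neurons, -0.20, with signals of 342 for clone 42 and 288 for clone 48, with puroB at 364 and puroD at 357.

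Among other beta and gamma subunits, 5 of 8 were lower in both pairs and 0 higher. The gamma subunit Gng11 had -0.53 and -1.31 (mean -0.92, limma adjusted p = 0.378), with signals of 291 for clone 42 and 190 for clone 48, with puroB at 419 and puroD at 472. Gng12, another gamma subunit, had -1.25 and -0.30 (mean -0.77, limma adjusted p = 0.593), and the beta subunit Gnb4 -0.59 and -0.31. The other 3 ran in opposite directions in the pairs: Gng10 at 1.33 and -0.57, Gng3 at -0.10 and 0.52, and Gnb2 at -0.18 and 0.23.

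Of the other RGS and GoLoco genes, 13 were on the array and 3 were bright enough to be tested. Rgs3 had a mean of -0.13. Rgs10 had a mean of 0.08 and, as Rgs16 was, it was brighter in the pair of clone 48 and puroD, with 181 for clone 42 and 364 for clone 48, with puroB at 188 and puroD at 314. Its further probe set read 143 for clone 42 and 267 for clone 48, with puroB at 115 and puroD at 198. Rgs19, a regulator of inhibitory subunits, had -0.48 and 0.57 in the pairs (mean 0.05). At this probe set it was also brighter in that pair, with 319 for clone 42 and 1168 for clone 48, with puroB at 446 and puroD at 786. A further Rgs19 probe set read 250 for clone 42 and 409 for clone 48, with both control clones at 365 (-0.55 and 0.16 in the pairs).

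The cAMP list had 12 tested genes, of which 5 lay below and 1 above the matched control clone in each pair. Pkib, an inhibitor of protein kinase A, read 159 for clone 42 and 62.5 for clone 48, with puroB at 247 and puroD at 243 (-0.63 and -1.96, mean -1.29, limma adjusted p = 0.349). Adcy6, an adenylyl cyclase that inhibitory alpha subunits restrain, read 672 for clone 42 and 624 for clone 48, with puroB at 1231 and puroD at 942 (mean -0.73, limma adjusted p = 0.550). Prkar2a, a regulatory subunit of protein kinase A, had -0.64 and -0.81 (mean -0.73, limma adjusted p = 0.653). Crem, a cAMP-responsive transcription factor, was the 1 higher in both, at 0.84 and 0.15. Crem was tested only through the Nurr1-labelled clones, so its direction was built into passing the filter.

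Among effectors and chaperones, Akap12, a scaffold for protein kinase A, read 97.8 for clone 42 and 150 for clone 48, with puroB at 226 and puroD at 272. Its differences were -1.21 and -0.86 (mean -1.03, limma adjusted p = 0.440). Ric8a, a chaperone and exchange factor of alpha subunits, had 0.45 and 0.37, and the potassium channel subunit Kcnj9, which beta and gamma subunits open, 1.10 and -0.01.

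In the phospholipase C and protein kinase C list, 3 of 7 were lower in both pairs and 1 higher. The diacylglycerol kinase Dgka had 1.58 and -0.06, Prkcz -0.22 and -0.53, and Prkcd -0.37 and -0.26. All 3 tested receptor kinases and arrestins were lower in both pairs: Grk5 at -0.46 and -0.53, Grk6 at -0.62 and -0.03, and Arrb1 at -0.50 and -0.02. The values of -0.03 and -0.02 are smaller than the shift from scaling to a common median, so their sign depends on the scaling. Of 34 receptors on the array that couple to inhibitory G proteins, 8 were tested, 3 of them lower and 1 higher in both pairs. Lpar1, a lysophosphatidic acid receptor, was the higher one, with 3512 for clone 42 and 1271 for clone 48, with puroB at 1872 and puroD at 1183. The neuropeptide Y receptor Npy2r had a mean of -0.61 and the GABA receptor subunit Gabbr1 -0.39. Npy2r was tested only through the control clones, so its direction was built into passing the filter. Adjusted p-values of the genes in this paragraph, from limma, were all 0.680 or more.

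**Figure D3:**
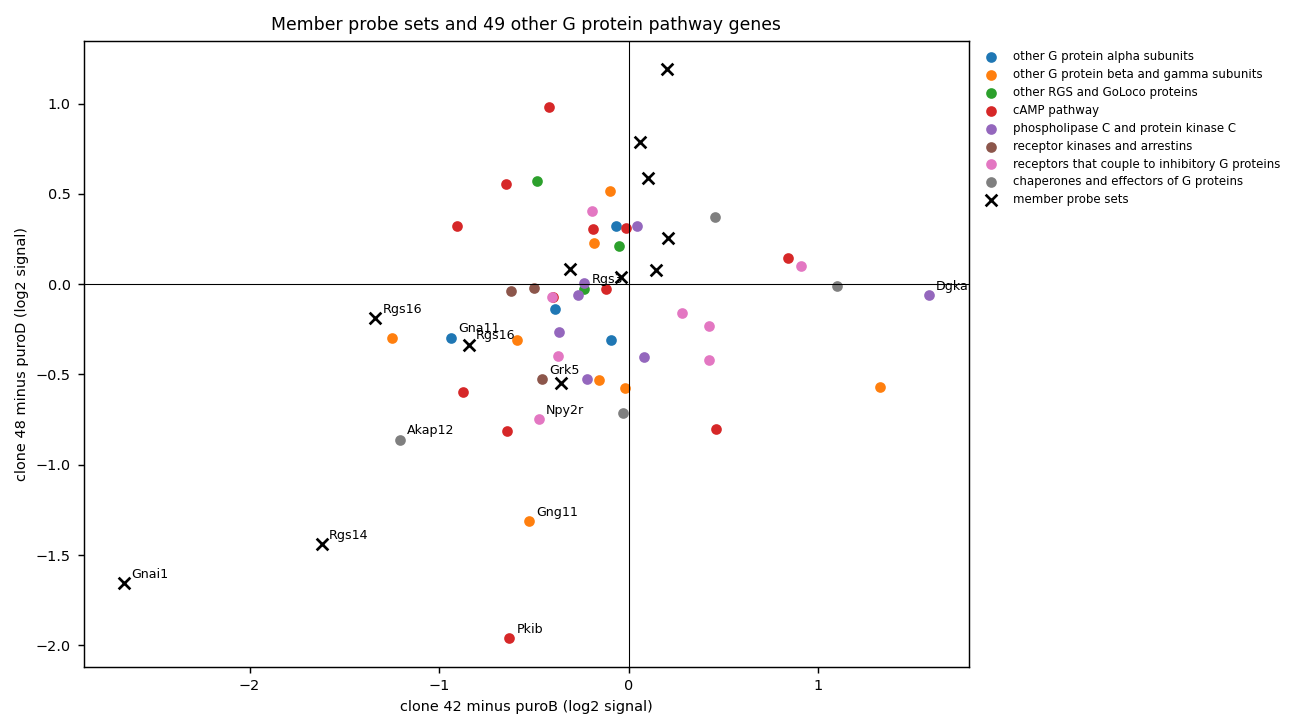
Log2 signal difference of clone 42 minus puroB (horizontal) against clone 48 minus puroD (vertical) for the 12 tested member probe sets (crosses) and 49 other genes of the pathway (dots, coloured by list). Of the 49 genes, 25 lie in the lower left and 4 in the upper right, and Gnai1 and Rgs14 lie below -1 on both axes, where 0 of the 49 do.

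The genes with the profile most like that of a member were found by distance between log2 signals over the 4 arrays, each gene centred on its own mean. Nearest to Gnai1 was F3, which encodes tissue factor, at 112 for clone 42 and 179 for clone 48, with puroB at 697 and puroD at 402 (distance 0.36). The metalloprotease Adam12 (0.42) and the homeobox factor Six4 (0.43) followed. These distances depend on the floor, at which Gnai1 lay in clone 42 and Adam12 in both Nurr1-labelled clones, so their order is not firm. Nearest to Rgs14 were Prps1l3 (0.13), Rcc2 (0.21) and Suz12, a Polycomb subunit (0.26). Nearest to Rgs16 were the homeobox factor Dlx1 (0.34), the receptor Ager (0.39) and Prm3 (0.52), with Dlx1 and Prm3 at the floor on 1 array each. The other Rgs16 probe set lay at 0.46, with 2 tested probe sets nearer. For Rgs2 3 of 4 signals were at the floor, so its neighbours carry no information.

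**Figure D4:**
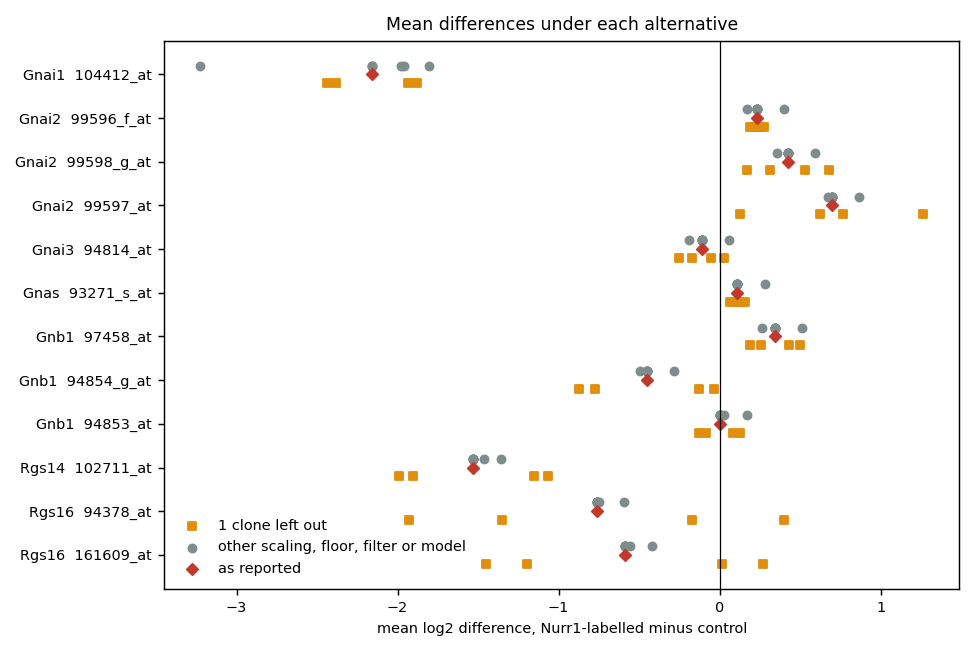
Mean log2 difference of Nurr1-labelled minus control clones for the 12 tested member probe sets as reported (diamonds), with 1 clone left out (squares) and under other scaling, floor, filter or model settings (circles). Gnai1 and Rgs14 stay below -1 throughout, whereas both Rgs16 probe sets, Gnai3 and Gnb1 at 94853_at cross 0.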

How the data were processed

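Biotin-labelled RNA of 4 c17.2 clones was measured on 1 Affymetrix mouse array each. Per the submitters' processing notes the authors used MAS5, and what they deposited is an intensity on a linear scale for each of 12469 rows; which version, scaling target and detection calls they used is not given in the sources at hand. The deposited arrays had been scaled: with 2% trimmed from both ends, their means were 500.4 to 500.5.

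Here each array was rescaled to a trimmed mean of 500, signals were floored at 40.3 and log2 was taken. Without 66 array controls, 6419 probe sets passed the filter. limma 3.58.1 (R 4.3.3) was fitted to all of them with a term for the matched pair, a prior variance that follows intensity, and Benjamini-Hochberg adjustment at 0.05. The fit leaves 1 residual degree of freedom, to which the prior adds 13.1, and the script was tested on simulated data. The pairing comes from the sample descriptions. The series design text names clone 42 beside both control clones, the second time with an abbreviation for clone 48, and was read as a slip. Arrays of a pair deviated together from their group means with r = 0.19 across probe sets, which are not independent. Each clone has 1 array, so spread between clones cannot be separated from noise between arrays. The residual of the paired fit holds only the disagreement between the matched pairs, and limma combines it with the prior variance. The number of arrays limits the precision.

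Symbols came from the platform annotation, checked through Entrez identifiers against RefSeq (GRCm38.p6); 10814 probe sets had 1 symbol, 396 several and 1193 none. The members, the pathway lists and the marker lists were chosen with earlier results of these data known. Named genes are all members and up to 3 tested genes of the largest absolute mean difference per list. The 3 nearest profiles of Gnai1, Rgs14, Rgs16 and Rgs2 are also named. Gng10, Gng3, Gnb2 and Crem, which complete a count, and Gng2 were named after their values were seen. Alternatives were another scaling, floor, filter, variance prior, a fit without the pair, and leaving out each clone.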

Additional observations from a re-analysis of the deposited data

How the results depend on the processing

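The number of probe sets that passed limma over the whole table, 7 as reported, was 51 with arrays scaled to a common median, 49 with the filter on all 4 arrays, and 0 with quantile normalization (375 at an unadjusted p under 0.05), no floor (473), no filter (560) or no replicate block, that is, without the matched pair (287). It was 8 with the higher floor of 62.6 and 7 without the intensity trend. Leaving out 1 clone, in fits without the pair, gave 0 (without puroB, 203 at an unadjusted p under 0.05) to 51 (without clone 48). Calls on the members carry no weight, as they were chosen on this contrast: Rgs14 passed with the median scaling and with the filter on all 4 arrays, and Gnai1, tested only through its control signals, without the intensity trend. In all, 0 of the listed pathway genes passed in any of the 9 fits on 4 arrays. The mean log2 difference of Gnai1 was -3.23 with no floor, which takes the signal of 9.2 in clone 42 at face value, and -1.80 to -2.16 under the other settings on 4 arrays that kept it; the filter on all 4 arrays removed it. That of Rgs14 was -1.36 with the median scaling, and -1.99 to -1.07 with 1 clone left out. Scaling to a common median moved the median of all tested probe sets to 0.13, against -0.04 as reported, and moved every tested member up. The pathway genes were counted by direction only with the scaling as reported. Gnai2 (3 probe sets), Gnas, Gnb1 at 97458_at and 94854_g_at, Rgs14 and Gnai1 kept their sign under all alternatives run. The cause of these changes was not tested. Signals near background limit Gnaq, Rgs2, Gnai1 in clone 42 and the dim Gnas probe sets.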
